A study of Mus musculus with 24 samples.

Results

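The RNA of 10 CC chemokine genes was followed in mouse aorta, namely Ccl2, Ccl3, Ccl4, Ccl5, Ccl6, Ccl7, Ccl8, Ccl9, Ccl11 and Ccl12. They were taken by gene name from a table of 32561 genes, and all 10 members were present, each as 1 row. CC chemokines are small secreted proteins that draw leukocytes out of the blood by way of receptors coupled to G proteins. Ccl2, Ccl7 and Ccl12 attract monocytes, mainly through Ccr2, while mouse Ccl8 is known chiefly as a ligand of Ccr8. Ccl3, Ccl4 and Ccl5 act on monocytes and T cells, Ccl6 and Ccl9 are made largely by myeloid cells and act through Ccr1, and Ccl11 (eotaxin) attracts eosinophils through Ccr3. In the artery wall, Ccl2 is best known for bringing monocytes into atherosclerotic lesions.

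The aortas came from mice on the 129S1/SvlmJ background and aged 44 to 53 days, with 24 libraries in 6 groups of 4. Bmp2+/+ males, Bmp2+/+ females and males homozygous for the Bmp2 allele ∆UCS were each compared between Kl/Kl mice, which carry the recessive Klotho mutation on both alleles and have renal failure per the labels, and controls with healthy kidneys. The female and ∆UCS controls were all Klotho +/Kl heterozygotes, and the Bmp2+/+ male controls were 3 +/Kl heterozygotes and 1 +/+ mouse. Klotho is a kidney protein that acts as a co-receptor for the phosphate hormone Fgf23, and the mutation is carried in every tissue, so the aorta of these mice lies in an animal with a general disease. After weaning, moistened chow was placed on the cage floor, per the labels. Each aorta was 1 library of polyA RNA, with about 20600000 to 61100000 reads in genes. Each library is labelled as a replicate, and whether some came from littermates is not given. Smooth muscle markers were present in every library used (summed TPM 73.5 to 625), as were adipocyte markers (968 to 2160). Markers of airway epithelium and of atrial heart muscle, tissues next to the aorta, also varied widely, and their sums are given with those of the other cell types. TPM, a length-scaled share of each library, is used here as deposited. It is scaled by the whole gene span, so a TPM compares a gene between libraries and not genes with one another.

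The sex-linked RNAs of 2 libraries did not match their labels. Xist, made from the inactive X, stood at 11.4 TPM in Bmp2+/+ Kl/Kl replicate 1 of the males, where the Y-linked Ddx3y was at 0.0138 TPM. Replicate 2 of the Kl/Kl females showed the reverse, with Ddx3y at 4.81 TPM and Xist at 0.0281 TPM. The male library lay within the range of its controls for 9 of the 10 chemokines and below every other male Bmp2+/+ Kl/Kl library for 8. The female library lay within its control range for 7 and below every other female Kl/Kl library for all 10. Results are given without these 2 libraries (22 are used, so 3 Kl/Kl libraries in each Bmp2+/+ stratum) and then with all 24.

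All 10 genes lie on chromosome 11 (mm39, starts as in the deposited table) in 2 groups. Ccl2 starts at 81926397, Ccl7 at 81936538, Ccl11 at 81948649, Ccl12 at 81992671 and Ccl8 at 82006011, all on the plus strand. Farther along lie Ccl5 (start 83416604), Ccl9 (83463745), Ccl6 (83478708) and Ccl3 (83538670) on the minus strand and Ccl4 (83553410) on the plus strand. These starts are the lower coordinates, which for a minus-strand gene mark the end of the gene. For the sequences below, the start is the gene's first base on its own strand. The RefSeq promoter table held 5 of the 10 genes. The 250 bases before the start are shown for the 4 of them that limma called in the Klotho comparison of at least 1 stratum, since these neighbours within each group moved in the same direction. The sequences are those of the reference strain on GRCm38.p6, not of 129S1/SvlmJ, and are written on the gene's own strand. Capitals mark a TATA box (TATAAA), the PU.1 core (GAGGAA or its reverse complement TTCCTC), an AP-1 site (TGANTCA) or an NF-kB site. Ccl8 is from chr11:82114935-82115184 (plus), Ccl12 from chr11:82101595-82101844 (plus), Ccl6 from chr11:83593088-83593337 (minus) and Ccl9 from chr11:83578637-83578886 (minus).
Ccl8: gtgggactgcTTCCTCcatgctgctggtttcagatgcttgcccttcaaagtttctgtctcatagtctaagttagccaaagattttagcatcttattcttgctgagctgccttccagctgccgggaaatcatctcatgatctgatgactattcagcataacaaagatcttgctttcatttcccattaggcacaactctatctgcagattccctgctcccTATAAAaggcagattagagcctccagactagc
Ccl12: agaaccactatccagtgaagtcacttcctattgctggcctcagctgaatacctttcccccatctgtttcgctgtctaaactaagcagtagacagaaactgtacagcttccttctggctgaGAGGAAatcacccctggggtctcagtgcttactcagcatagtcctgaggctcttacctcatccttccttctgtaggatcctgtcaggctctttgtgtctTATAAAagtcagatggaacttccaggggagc
Ccl6: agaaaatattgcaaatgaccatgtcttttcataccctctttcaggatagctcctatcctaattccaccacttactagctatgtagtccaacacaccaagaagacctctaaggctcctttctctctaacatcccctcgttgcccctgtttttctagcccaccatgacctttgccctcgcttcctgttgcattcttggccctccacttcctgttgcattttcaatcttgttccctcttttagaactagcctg
Ccl9: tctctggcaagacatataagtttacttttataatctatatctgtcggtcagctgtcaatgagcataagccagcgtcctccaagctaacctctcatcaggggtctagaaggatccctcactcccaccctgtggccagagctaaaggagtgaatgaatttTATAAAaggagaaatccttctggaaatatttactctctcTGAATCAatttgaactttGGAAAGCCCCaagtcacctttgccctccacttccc

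Ccl8 and Ccl12, neighbours on the plus strand, each had a TATAAA close to the gene start, 32 and 31 bases before it. In Ccl9 the TATAAA lay 92 bases before the start, with an AP-1 match 53 and an NF-kB match 35 bases before it. The Ccl6 window held none of the motifs searched. Over the 5 genes with a sequence, the TATA box was found in 3 (7.59% of 32851 promoters of the same length), the PU.1 core in 3 (23.3%), and the NF-kB and AP-1 motifs in Ccl9 only (7.25% and 6.75% of promoters). The C/EBP letters TTGCNNAA (9.56%) and the STAT letters TTCNNNGAA (7.02%) were found in 0 of the 5. The TATA box was searched on the gene's strand and the others on both, and no match overlapped another. Aligned end to end, the Ccl8 and Ccl12 windows were 57.5% identical, and the other 9 pairs among the 5 genes 48.1% to 54.2%. Such matches describe the letters in these windows and are no evidence of binding.

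Before any comparison, the levels of the genes differed widely in control aortas. All levels in this paragraph are scaled by exon length and by the reads outside the mitochondrial genome (RPKM over exons). By mean, Ccl11 came first in each control group, at 27.4 ± 5.86 in females, 23.1 ± 3.59 in Bmp2+/+ males and 20.6 ± 3.20 in ∆UCS males (mean ± SD, n = 4 each). Its range overlapped that of the gene after it in each group. In Bmp2+/+ male controls that gene was Ccl5, at 15.9 ± 24.8, with 52.9 in replicate 3. Ccl6 stood at 20.7 ± 8.04 in female controls, and its range overlapped that of Ccl11. Ccl9 followed at 8.18 ± 2.60, with no overlap with its neighbours in this order. The genes of the first chromosomal group other than Ccl11 were far lower in the same mice, with 1.62 ± 0.905 for Ccl8, 0.782 ± 0.164 for Ccl2, 0.543 ± 0.256 for Ccl7 and 0.457 ± 0.200 for Ccl12, and each overlapped the next. Ccl3 (0.113 ± 0.104) and Ccl4 (0.0150 ± 0.0300) came last. In Kl/Kl aortas the order was led by Ccl6, at 99.1 ± 64.9 in females (n = 3), 69.9 ± 13.8 in Bmp2+/+ males (n = 3) and 49.4 ± 23.7 in ∆UCS males (n = 4). Ccl8 moved up to the place after it in females (62.0 ± 34.0, overlapping Ccl6 and Ccl9), while Ccl11 remained at 28.3 ± 6.29.

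**Figure D1:**
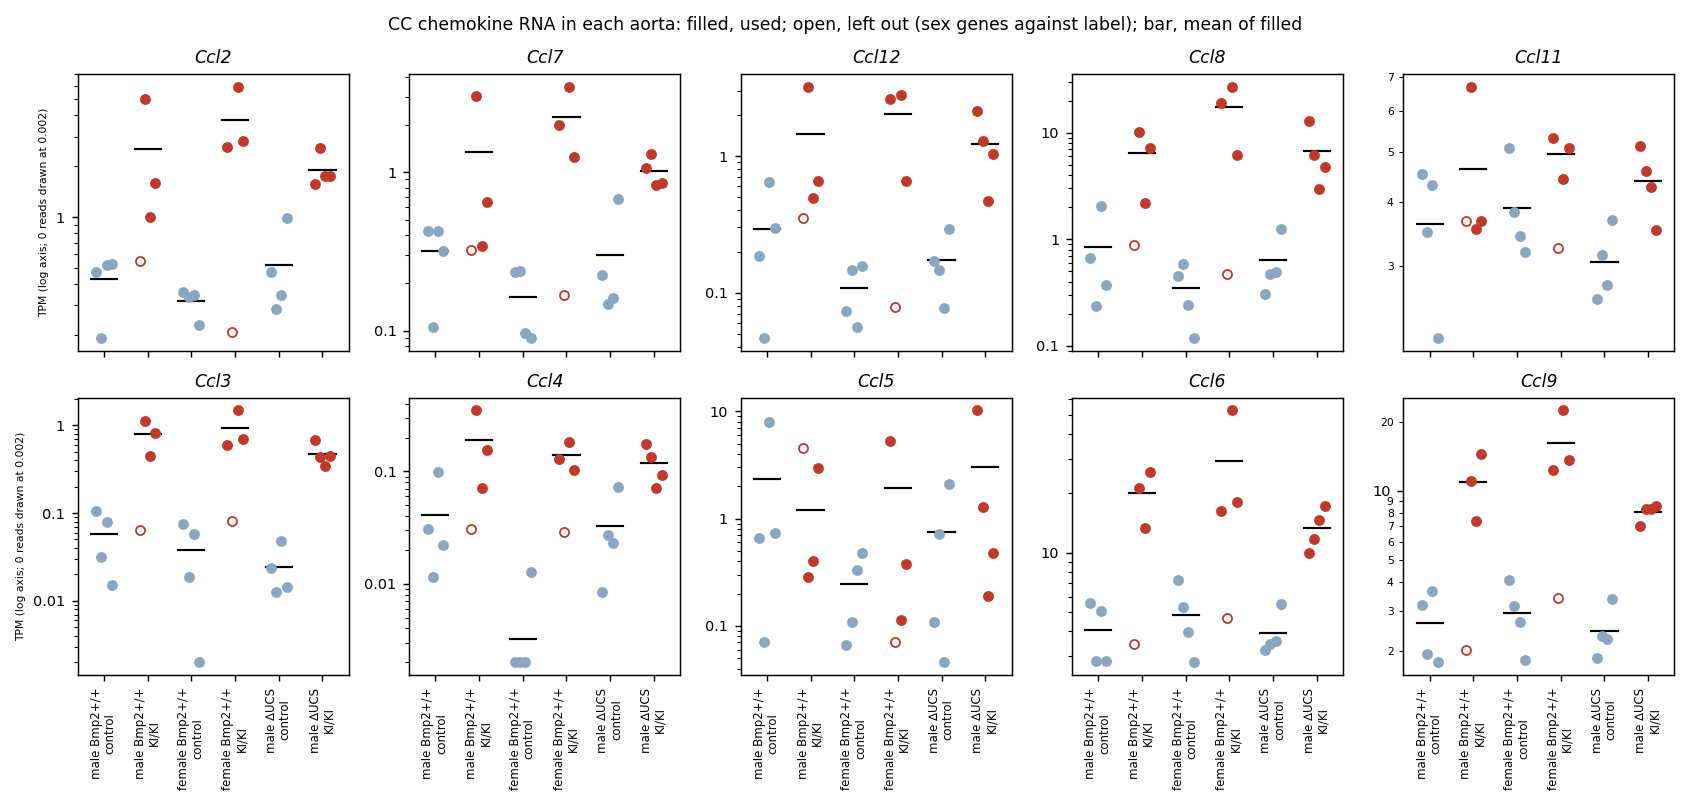
TPM of each chemokine in every aorta, on log axes that differ between panels. Filled points are the 22 libraries used, open points the 2 libraries whose sex genes go against their label, and bars the group means. The open points sit among the controls for most genes. The filled red Kl/Kl points of Ccl2, Ccl3, Ccl6, Ccl8 and Ccl9 lie above all controls of their stratum.

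Ccl6 and Ccl9, products of myeloid cells, were higher in Kl/Kl aortas in all 3 strata. Ccl6 read 5.55, 2.82, 5.06 and 2.84 TPM in the Bmp2+/+ male controls and 21.3, 13.3 and 25.7 TPM in the Kl/Kl males. In females the Ccl6 controls read 7.25, 5.34, 3.95 and 2.78 TPM and the Kl/Kl aortas 16.3, 52.6 and 18.1 TPM. In ∆UCS males the Ccl6 values were 3.21, 3.43, 3.58 and 5.50 TPM in controls and 10.0, 11.7, 14.6 and 17.2 TPM in Kl/Kl. No Kl/Kl value overlapped a control of its stratum, and the highest was 1 female Kl/Kl aorta. On the log2(TPM + 1) scale, limma gave Ccl6 increases of 2.02 (SE 0.37, adjusted p = 0.00606) in Bmp2+/+ males, of 2.22 (SE 0.37, adjusted p = 0.00111) in females, and of 1.54 (SE 0.34, adjusted p = 0.0409) for ∆UCS males.

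Ccl9 was close to Ccl6 in pattern. The Bmp2+/+ male controls had 3.17, 1.93, 3.68 and 1.79 TPM of Ccl9 against 11.0, 7.39 and 14.5 TPM in Kl/Kl. Female controls had 4.10, 3.14, 2.67 and 1.83 TPM of Ccl9 and Kl/Kl females 12.3, 22.5 and 13.7 TPM. The ∆UCS males had 1.86, 2.32, 2.26 and 3.37 TPM of Ccl9 as controls and 7.00, 8.34, 8.34 and 8.60 TPM as Kl/Kl. The groups did not overlap in any stratum, and the ∆UCS Kl/Kl values were the tightest of the 3 Kl/Kl groups. By limma, Ccl9 increased by 1.69 (SE 0.27, adjusted p = 0.00147), 2.11 (SE 0.26, adjusted p = 5.23e-05) and 1.41 (SE 0.25, adjusted p = 0.00606) in the same order of strata.

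Ccl8, which draws leukocytes that carry Ccr8, had the largest female change of the 8 members that limma tested. Female controls read 0.456, 0.585, 0.243 and 0.117 TPM of Ccl8 (7 to 33 reads), and Kl/Kl females 18.9, 27.1 and 6.19 TPM (321 to 1561 reads). The ratio of the means was 49.7-fold, on 0.350 ± 0.210 TPM (n = 4) and 17.4 ± 10.5 TPM (SD, n = 3). The Bmp2+/+ males had 0.673, 0.237, 2.06 and 0.373 TPM of Ccl8 as controls and 10.1, 2.17 and 7.16 TPM as Kl/Kl, so that the lowest Kl/Kl male only just exceeded the highest control. The ∆UCS controls read 0.307, 0.474, 0.493 and 1.25 TPM of Ccl8 and the ∆UCS Kl/Kl aortas 12.9, 6.12, 2.94 and 4.75 TPM, again with no overlap. The limma change of Ccl8 was 3.57 (SE 0.48, adjusted p = 1.2e-04) in females and 2.11 (SE 0.45, adjusted p = 0.0312) in ∆UCS males. In Bmp2+/+ males it was 1.89 (SE 0.49), with an adjusted p of 0.0745 that missed the threshold.

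Ccl2, the main ligand of Ccr2, read 0.361, 0.334, 0.347 and 0.229 TPM in female controls and 2.59, 5.93 and 2.83 TPM in Kl/Kl females. Its limma change there was 1.79 (SE 0.29, adjusted p = 7.6e-04). The Bmp2+/+ males had 0.475, 0.191, 0.522 and 0.529 TPM of Ccl2 as controls and 5.04, 1.00 and 1.60 TPM as Kl/Kl. The ∆UCS males had 0.470, 0.285, 0.346 and 0.984 TPM of Ccl2 as controls and 1.58, 2.57, 1.75 and 1.74 TPM as Kl/Kl. Neither male stratum had an overlap, yet neither passed the threshold in limma (1.11, SE 0.29, adjusted p = 0.0801, and 0.95, SE 0.27, adjusted p = 0.0841).

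Ccl7 lies next to Ccl2 and shares its receptor. In females Ccl7 read 0.234, 0.237, 0.0961 and 0.0891 TPM in controls and 1.99, 3.47 and 1.25 TPM in Kl/Kl, a limma change of 1.42 (SE 0.28, adjusted p = 0.00541). Among Bmp2+/+ males the Ccl7 values overlapped, with 0.423, 0.106, 0.427 and 0.319 TPM in controls and 3.04, 0.342 and 0.650 TPM in Kl/Kl. In ∆UCS males they did not, with 0.224, 0.148, 0.159 and 0.673 TPM in controls and 1.06, 1.30, 0.829 and 0.858 TPM in Kl/Kl. The limma changes of Ccl7 in the male strata were 0.60 (SE 0.28, adjusted p = 0.437) and 0.64 (SE 0.25, adjusted p = 0.218).

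Ccl12, a mouse relative of Ccl2, was measured on few reads. Female controls had 4, 8, 2 and 9 reads of Ccl12 (0.0728, 0.147, 0.0560 and 0.156 TPM) and Kl/Kl females 209, 146 and 33 reads (2.62, 2.79 and 0.660 TPM). The female groups were apart, and the limma change of Ccl12 was 1.36 (SE 0.32, adjusted p = 0.0234), a call held in 2 of the 7 fits without 1 library. Bmp2+/+ male values overlapped for Ccl12, at 0.185, 0.0461, 0.651 and 0.298 TPM against 3.23, 0.494 and 0.652 TPM. The ∆UCS males had 0.171, 0.148, 0.0775 and 0.294 TPM of Ccl12 as controls and 2.13, 1.29, 0.470 and 1.04 TPM as Kl/Kl, without overlap. The changes were 0.71 (SE 0.32, adjusted p = 0.434) and 0.88 (SE 0.29, adjusted p = 0.134) by limma.

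Ccl3 and Ccl4, the macrophage inflammatory proteins 1-alpha and 1-beta, were below the expression minimum of the limma fit (1 TPM or more in 4 or more libraries). Ccl3 had 0 to 5 reads in each of the 12 control libraries. Its reads numbered 48, 27 and 38 in Bmp2+/+ Kl/Kl males, 46, 75 and 34 in Kl/Kl females and 30, 21, 24 and 31 in ∆UCS Kl/Kl males, so all kept Kl/Kl aortas stood above all controls. Mean Ccl3 was 0.791 ± 0.333 against 0.0579 ± 0.0417 TPM in Bmp2+/+ males (n = 3 and 4), 0.922 ± 0.480 against 0.0379 ± 0.0344 TPM in females (n = 3 and 4), and 0.473 ± 0.140 against 0.0246 ± 0.0162 TPM in ∆UCS males (n = 4 each). In each stratum a two-sided exact permutation test on TPM gave Ccl3 p = 0.0286, the smallest value that 3 against 4 (or 4 against 4) can give. With all 24 libraries the same test gave 0.0857 in Bmp2+/+ males and 0.0286 in females. A fit of limma voom on the estimated reads, which kept 22293 genes and so tested all 10 members, called Ccl3 in each stratum (3.44, SE 0.61, adjusted p = 0.00406; 4.08, SE 0.64, adjusted p = 7.94e-04; 3.64, SE 0.65, adjusted p = 0.00631, in the same order). Ccl3 reached the 10 reads that this fit requires in 4 libraries only in Kl/Kl aortas, as did Ccl4, so both entered it through the group where they were high.

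Ccl4 had the fewest reads. Female controls had 0, 0, 0 and 1 read of Ccl4 and Kl/Kl females 14, 13 and 7. Among Bmp2+/+ males the Ccl4 reads were 2, 1, 7 and 2 in controls and 21, 6 and 10 in Kl/Kl, and in ∆UCS males 1, 3, 2 and 7 in controls and 11, 9, 7 and 9 in Kl/Kl. The female groups were apart and the male groups overlapped in TPM. The exact permutation p for Ccl4 was 0.0286 in females, the smallest possible, and 0.0571 in each male stratum. With all 24 libraries this permutation p was 0.171 in Bmp2+/+ males and 0.0286 in females. By limma voom Ccl4 was called in females (3.26, SE 0.61, adjusted p = 0.00446), and in Bmp2+/+ males (1.90, SE 0.55, adjusted p = 0.102) and ∆UCS males (1.51, SE 0.53, adjusted p = 0.165) it was not.

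Ccl11, the eotaxin gene, overlapped between Kl/Kl and control in every stratum. It read 5.09, 3.82, 3.44 and 3.20 TPM in female controls and 5.31, 4.43 and 5.09 TPM in Kl/Kl females. Values of Ccl11 in Bmp2+/+ males were 4.53, 3.50, 4.31 and 2.17 TPM in controls and 6.69, 3.54 and 3.67 TPM in Kl/Kl. The ∆UCS males had 2.60, 3.16, 2.77 and 3.70 TPM of Ccl11 as controls and 5.14, 4.60, 4.28 and 3.53 TPM as Kl/Kl. By limma the Ccl11 change was 0.20 (95% interval -0.22 to 0.62, adjusted p = 0.770) in Bmp2+/+ males, 0.29 (-0.12 to 0.71, adjusted p = 0.344) in females and 0.41 (0.03 to 0.79, adjusted p = 0.265) in ∆UCS males. Median-of-ratios scaling put the female value at -0.13 and limma voom at -0.21, so its sign depended on the scaling. Eosinophil markers (6 genes, 1 at 0 reads in all female controls) summed to 1.62 to 3.81 TPM in female controls and 4.23 to 6.45 TPM in Kl/Kl females, without overlap. In that stratum 29.2% of 22293 genes lay wholly higher in Kl/Kl. The eosinophil markers overlapped in Bmp2+/+ males (1.70 to 4.14 against 3.18 to 4.65 TPM) and ∆UCS males (1.98 to 4.73 against 2.81 to 7.49 TPM). Their part in the Ccl11 values was not tested.

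Ccl5 (RANTES), a product of T and NK cells among others, varied by individual aorta. In Bmp2+/+ males it read 0.660, 0.0707, 7.94 and 0.742 TPM in controls and 0.287, 0.403 and 2.94 TPM in Kl/Kl. Female values of Ccl5 were 0.0657, 0.109, 0.331 and 0.477 TPM in controls and 5.31, 0.113 and 0.381 TPM in Kl/Kl, and ∆UCS values 0.108, 0.715, 0.0458 and 2.11 TPM against 10.2, 1.28, 0.190 and 0.474 TPM. All 3 pairs of groups overlapped, with single high aortas in both control and Kl/Kl groups. The limma changes of Ccl5 were -0.30 (95% interval -1.95 to 1.35), 0.79 (-0.84 to 2.42) and 0.72 (-0.79 to 2.22), with adjusted p of 0.938, 0.523 and 0.557, and the female and ∆UCS intervals reach as far as the Ccl9 changes there. The 3 highest Ccl5 libraries of those used were also high in summed markers of T and NK cells (11 genes): ∆UCS Kl/Kl replicate 1 had 164 TPM of them, Bmp2+/+ male control replicate 3 had 34.1 TPM and female Kl/Kl replicate 1 had 30.8 TPM. Their B cell marker sums (5 genes) were 49.1, 58.0 and 57.0 TPM, against 0.575 to 27.1 TPM in the other libraries used. An exception was Bmp2+/+ male control replicate 1, with 63.8 TPM of T and NK markers, 1.65 TPM of B cell markers and 0.660 TPM of Ccl5. Their part in the Ccl5 values was not tested.

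**Figure D2:**
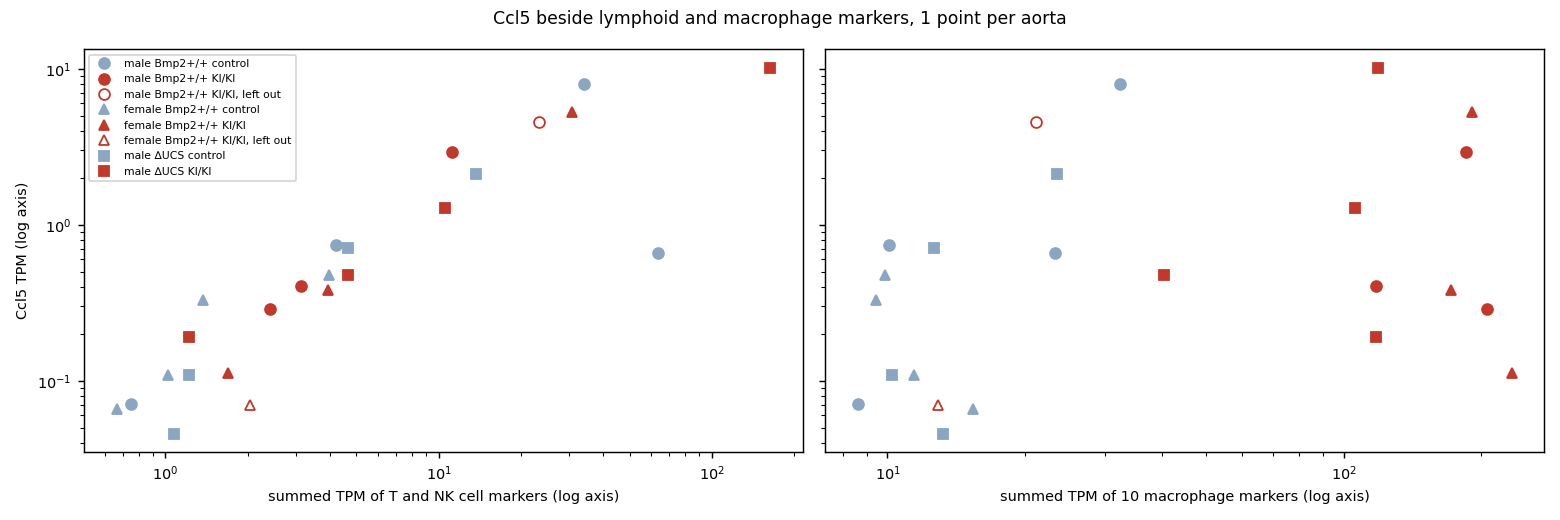
Ccl5 TPM in each of the 24 aortas against the summed TPM of 11 T and NK cell markers (left) and of 10 macrophage markers (right), on log axes; open symbols are the 2 libraries left out. Ccl5 is high where the lymphoid sum is high, apart from 1 male control at 63.8 and 0.660 TPM, while the kept Kl/Kl aortas, all high in the macrophage sum, run from 0.113 to 10.2 TPM of Ccl5.

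Counted together, limma called 2 of the 8 tested members higher in Bmp2+/+ males (Ccl6 and Ccl9), 6 in females (Ccl2, Ccl7, Ccl12, Ccl8, Ccl6 and Ccl9) and 3 in ∆UCS males (Ccl8, Ccl6 and Ccl9), and none lower. Over the 9933 genes tested, 1.04%, 2.58% and 0.534% were called higher in the same comparisons, and 0.0604%, 0.0201% and 0.111% lower. Ccl2, Ccl7 and Ccl12 reached the minimum of 1 TPM in Kl/Kl libraries only, and Ccl8 did so in Kl/Kl libraries and 2 controls, so these 4 were tested because they were high in that group and the count is a description of the members. The median log2 change of the 8 was 0.91, 1.61 and 0.91, beside 0.09, 0.29 and 0.26 over all genes. Summed macrophage markers moved with these calls in every stratum (9.44 to 15.4 TPM in female controls and 172 to 234 TPM in Kl/Kl females, for example). Airway epithelium markers did so in females (262 to 1318 against 2357 to 3240 TPM) and ∆UCS males (6.06 to 859 against 909 to 2390 TPM), and atrial heart muscle markers in females (127 to 289 against 305 to 3718 TPM). The part of any of them in the calls was not tested. With limma voom the members called higher numbered 5 of 10 in Bmp2+/+ males (Ccl2, Ccl8, Ccl3, Ccl6 and Ccl9; 1.38% of 22293 genes), 8 in females (all but Ccl11 and Ccl5; 2.05%) and 2 in ∆UCS males (Ccl8 and Ccl3; 0.713%), with Ccl3 and Ccl4 having entered through Kl/Kl libraries alone, and none lower, where 0.135%, 1.18% and 0.502% of genes were. Ccl6 and Ccl9 had voom changes of 1.41 (SE 0.43, adjusted p = 0.112) and 1.37 (SE 0.34, adjusted p = 0.0582) in ∆UCS males and so lost their call there. The split of called genes into higher and lower moved with the scaling. As deposited it was 103 and 6 in Bmp2+/+ males, 256 and 2 in females and 53 and 11 in ∆UCS males. Median-of-ratios scaling gave 148 and 33, 209 and 182, and 71 and 57 in the same order, and limma voom 307 and 30, 456 and 264, and 159 and 112.

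**Figure D3:**
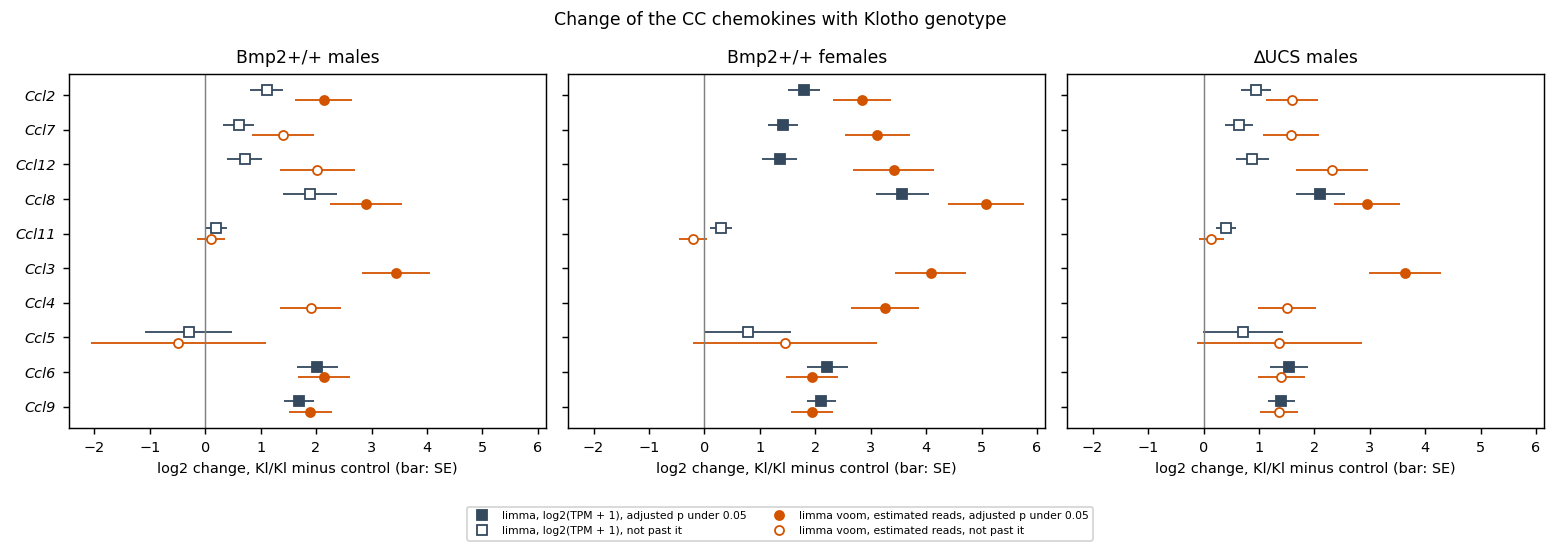
Log2 change from control to Kl/Kl with its standard error, for each chemokine and stratum, by limma on log2(TPM + 1) (squares) and by limma voom on estimated reads (circles). Filled symbols have an adjusted p under 0.05; Ccl8 in females is farthest right by both fits for the genes that both tested, Ccl11 lies near 0, and Ccl5 has the widest bars.

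Without any model, the TPM of Kl/Kl and control libraries did not overlap, with Kl/Kl higher, for 5 members in Bmp2+/+ males (5.12% of 22293 genes with enough reads), 8 in females (29.2%) and 7 in ∆UCS males (5.99%). No member lay wholly lower, as 1.05%, 1.4% and 1.49% of genes did. The female background was high, so non-overlap there says less. With all 24 libraries as labelled, these counts were 1 (0.996%), 2 (10.9%) and 7 (5.99%), and limma called 0 members in each stratum, as did limma voom. At an unadjusted p under 0.05, the all-library limma fit held 4, 6 and 6 of 8 members beside 603, 1498 and 1628 of all 9933 genes, and limma voom 7, 8 and 8 of 10 members beside 1778, 2597 and 3493 of 22293. Over all genes, 0 were called higher in any stratum by either fit of all 24 libraries. Ccl8 kept its direction and changed by 1.49 (SE 0.66), 2.71 (SE 0.66) and 2.11 (SE 0.66) in the order Bmp2+/+ males, females, ∆UCS males with all 24. The pooled error grew from 0.45 to 0.66 for the ∆UCS comparison, whose own libraries were the same in both fits.

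In Bmp2+/+ males Ccl6 and Ccl9 each kept their call in 6 of the 7 fits that left out 1 library. Without Kl/Kl replicate 4 none of the members was called (adjusted p = 0.512 for Ccl6 and 0.198 for Ccl9 in limma), and without Kl/Kl replicate 3 there were 5 (Ccl2, Ccl7, Ccl8, Ccl6 and Ccl9). The library names fall into 2 sets by spelling, and the Bmp2+/+ male groups were divided between them. Within set 1 alone, which holds control replicates 1 and 3 and Kl/Kl replicates 2 and 3, Ccl6 changed by 1.50 (SE 0.34, adjusted p = 0.303) and Ccl9 by 1.19 (SE 0.29, adjusted p = 0.437). Set 2 holds 1 usable Kl/Kl male and so gave no value. All female libraries were in set 2 and all ∆UCS libraries in set 1. In ∆UCS males Ccl9 kept its call without any 1 of the 8 libraries, Ccl8 in 3 of those 8 fits and Ccl6 in 1 of them. In females Ccl2, Ccl8, Ccl6 and Ccl9 kept theirs in all 7 fits, Ccl7 in 6 and Ccl12 in 2, with limma adjusted p for Ccl12 from 0.00301 to 0.166.

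The changes also followed position only in part. In the first gene group Ccl11 lies between Ccl7 and Ccl12, which limma called in females while Ccl11 was not. In the second, Ccl5 lies next to Ccl9 and was not called in any stratum by either fit. Differences between these neighbours were not tested.

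**Figure D4:**
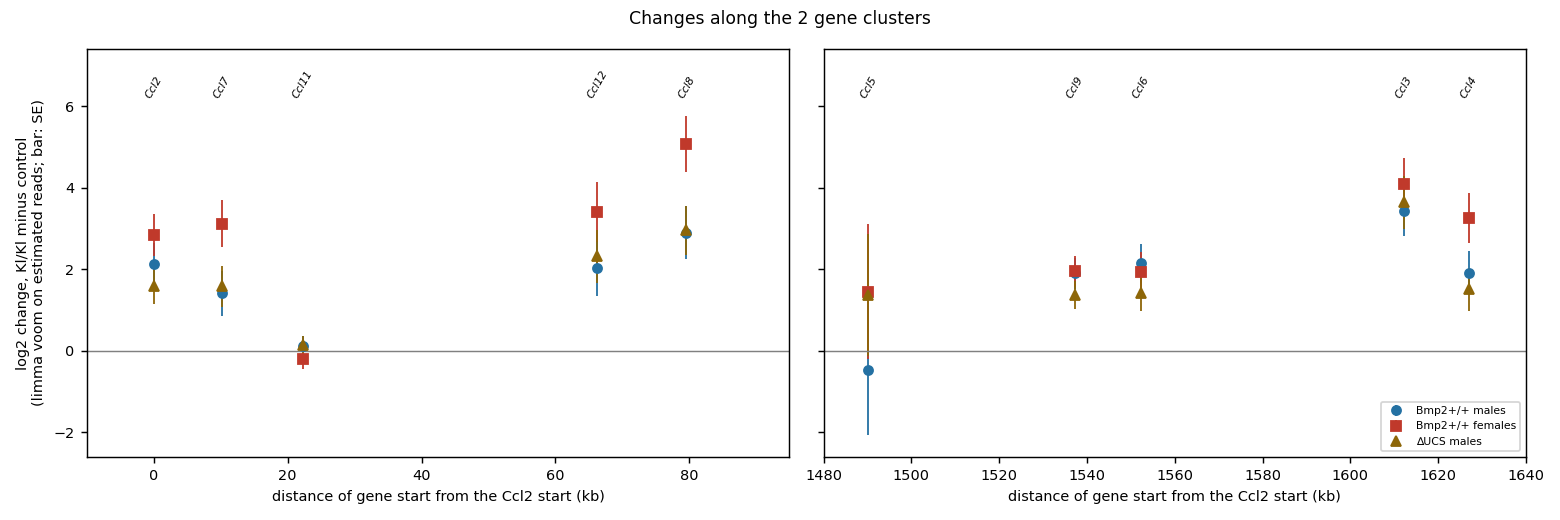
Log2 change from control to Kl/Kl by limma voom (bars: standard error) against the distance of each gene's start from the Ccl2 start, with the 2 gene groups in separate panels. Starts are the lower coordinates on either strand. Ccl11 sits near 0 between Ccl7 and Ccl12, and Ccl5 is the least precise member of the second group.

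The increases were compared between strata. The Klotho change of Ccl8 was larger in females than in Bmp2+/+ males by 1.68 (SE 0.69) on the log2 scale in limma, with an unadjusted p of 0.0248 and an adjusted p of 0.988, so the difference did not pass over all genes. For Ccl7 this female minus male difference was 0.82 (SE 0.39, adjusted p = 0.988, 95% interval -0.01 to 1.64). For Ccl9 it was 0.42 (95% interval -0.37 to 1.21) and for Ccl6 0.20 (-0.90 to 1.29). None of the 9933 genes was called for it. Between ∆UCS and Bmp2+/+ males the Klotho change differed by 0.22 (-1.17 to 1.61) for Ccl8, -0.48 (-1.54 to 0.57) for Ccl6 and -0.28 (-1.04 to 0.48) for Ccl9, with 0 members and 0 genes called. A missed threshold does not show that the strata respond alike.

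∆UCS and Bmp2+/+ males were also compared directly. In controls the limma differences, ∆UCS minus Bmp2+/+, ran from -0.68 (Ccl5, 95% interval -2.40 to 1.04) to -0.05 (Ccl2, -0.69 to 0.58), with 0 of 8 members and 0 of 9933 genes called. Among Kl/Kl males they ran from -0.60 (Ccl6, -1.41 to 0.21) to 0.34 (Ccl5, -1.38 to 2.06), with 0 of 8 members and 0 genes called. Over all genes the medians were -0.17 in controls and -0.01 in Kl/Kl, with 20.5% and 48.0% of genes above 0. Of the 8 members, 0 and 1 were above 0. By limma voom 3 and 1 of the 10 members were above 0, beside 47.5% and 52.3% of genes. At an unadjusted p under 0.05 none of the 8 members passed in either comparison by limma (216 and 180 of all genes did), and none of the 10 by limma voom (1372 and 672 genes). Without Bmp2+/+ Kl/Kl replicate 3, 5 of 8 members and 829 genes passed that unadjusted limit in the Kl/Kl comparison, and 0 passed after adjustment. Mean Ccl6 was 13.4 ± 3.16 TPM in ∆UCS Kl/Kl males (n = 4) and 20.1 ± 6.29 TPM in Bmp2+/+ Kl/Kl males (n = 3), and the groups overlapped. Ccl3 was 0.318 TPM lower in ∆UCS than in Bmp2+/+ Kl/Kl males (exact permutation p = 0.171, two-sided). No member was free of overlap between ∆UCS and Bmp2+/+ in either comparison (0.345% of genes were higher and 0.848% lower without overlap in controls, and 0.197% and 0.897% in Kl/Kl). With all 24 libraries the Kl/Kl shares were 0.103% and 0.166%. All ∆UCS libraries belong to set 1, and within that set the differences were also uncalled.

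The receptors of these ligands were described next, from a list of 10 CC receptor genes, of which limma tested 4. Of these, 2 were called higher in Bmp2+/+ males (Ccr1 and Ccrl2), 3 in females (also Ccr2) and 1 in ∆UCS males (Ccrl2), with none lower. Over all 9933 genes, 1.04%, 2.58% and 0.534% were called higher in the same order. Ccr1, a receptor of Ccl3, Ccl6 and Ccl9, increased in the limma fit by 1.51 (SE 0.25, adjusted p = 0.00111) in females and 1.08 (SE 0.25, adjusted p = 0.0427) in Bmp2+/+ males, and stood at 0.62 (SE 0.23, adjusted p = 0.193) in ∆UCS males. It reached 1 TPM in Kl/Kl libraries only and so was tested through them, which leaves the count of called receptors a description. Ccr2, the receptor of Ccl2, Ccl7 and Ccl12, read 1.01, 0.774, 0.569 and 0.739 TPM in female controls and 3.02, 5.06 and 2.33 TPM in Kl/Kl females. The Ccr2 change was 1.29 (SE 0.22, adjusted p = 0.00179) there, against 0.56 (SE 0.23, adjusted p = 0.351) in Bmp2+/+ and 0.25 (SE 0.21, adjusted p = 0.487) in ∆UCS males. Ccrl2, an atypical receptor that binds chemerin and does not signal to migration, was called in all 3 (1.54, 1.76 and 1.31, with adjusted p of 0.00351, 3.48e-04 and 0.0101 by limma, in the order Bmp2+/+ males, females, ∆UCS males). Of the receptors' differences between strata none was called.

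**Figure D5:**
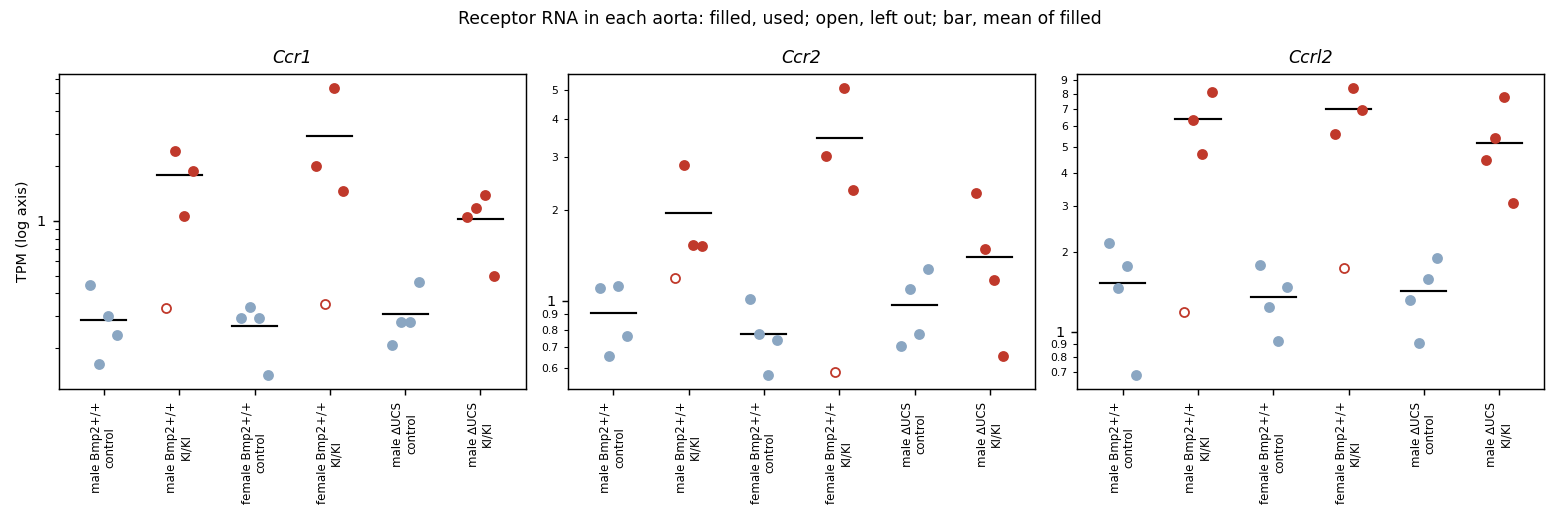
TPM of 3 receptor genes in every aorta on log axes, with filled points for the libraries used, open points for the 2 left out and bars for group means. The filled points of Kl/Kl females stand above their controls in all 3 panels, while in ∆UCS males the Ccr2 points of Kl/Kl and control overlap.

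Among the other chemokines, 0 of the 7 tested remaining CC ligands (of 13 listed) were called in any stratum, 0 of 11 by limma voom. Of 11 tested CXC, CX3C and XC ligands (of 17), 1 was called higher in Bmp2+/+ males and 4 in females, with 0 in ∆UCS males. The shares called higher over all 9933 genes were 1.04%, 2.58% and 0.534%. Cxcl2, a neutrophil attractant, rose by 1.31 (SE 0.27, adjusted p = 0.0167) in Bmp2+/+ males and 1.25 (SE 0.27, adjusted p = 0.0116) in females by limma. Its TPM was 0.0464, 0.0463, 0.0144 and 0.0560 in Bmp2+/+ male controls and 3.58, 0.747 and 1.23 in Kl/Kl, without overlap. The ∆UCS males did not overlap in Cxcl2 either (0.0257 to 0.0699 TPM in controls, 0.361 to 1.77 TPM in Kl/Kl). Cxcl2 reached 1 TPM in Kl/Kl libraries only and so was tested through them. In females Cxcl16 (1.87), Cxcl17 (1.76) and Pf4 (1.77) also rose, with adjusted p of 0.00629, 0.00222 and 0.00811 by limma. Airway epithelium markers were likewise wholly higher in Kl/Kl females (2357 to 3240 TPM against 262 to 1318 TPM in controls). Pf4 is itself on the list of resident adventitial macrophage markers. The part of these tissues and cells in the 3 changes was not tested. Limma voom, which tested all 17, added Cxcl3, with 0 or 1 read in every control and 11 to 116 reads in the kept Kl/Kl aortas (adjusted p = 4.46e-04, 8.13e-04 and 0.00564), which therefore entered that fit through the Kl/Kl aortas alone. It called Cxcl1 in Bmp2+/+ males and Cxcl5 in females. Of 14 listed NF-kB feedback and cytokine genes, limma tested 9 and called only Vcam1, an endothelial adhesion molecule, in females (1.85, SE 0.42, adjusted p = 0.0176). Limma voom tested all 14 and called 1 in Bmp2+/+ males (Il1b), 4 in females (Il1b, Il6, Tnf and Vcam1) and 0 in ∆UCS males. Over all 22293 genes it called 1.38%, 2.05% and 0.713% higher, and 0.135%, 1.18% and 0.502% lower. Il1b, an inflammatory cytokine of myeloid cells, read 0.0265 to 0.0574 TPM in female controls and 0.545 to 0.940 TPM in Kl/Kl females, and 0.0219 to 0.122 against 0.394 to 1.11 TPM in Bmp2+/+ males. None of 5 tested interferon-stimulated genes and neither of 2 tested atypical chemokine receptors was called in any stratum by limma, and none of the 10 and 4 listed by limma voom.

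Markers of some other cells moved with the chemokines, and of the summed lists only macrophage and dendritic cell markers were apart in every stratum. The 10 macrophage markers summed to 8.61 to 32.3 TPM in the Bmp2+/+ male controls and 118 to 207 TPM in the Kl/Kl males, to 9.44 to 15.4 TPM against 172 to 234 TPM in females, and to 10.3 to 23.5 TPM against 40.3 to 119 TPM in ∆UCS males. The sums did not overlap in any stratum, and none of the 10 markers was at 0 reads throughout a group. Of the 5 tested, limma called 3, 4 and 3 higher (Cd68, Mpeg1 and Cd14 in each, and Csf1r in females). Over all 9933 genes, 1.04%, 2.58% and 0.534% were called higher. Whether these 5 reached 1 TPM in controls is not given here, so the counts are a description. In the 2 libraries left out, the macrophage sum was 21.1 TPM (labelled male) and 12.9 TPM (labelled female). Resident adventitial macrophage markers (8 genes) overlapped in the male strata, where Bmp2+/+ controls had 141 to 577 TPM and Kl/Kl 121 to 524 TPM. They were 85.6 to 284 TPM in female controls and 329 to 536 TPM in Kl/Kl females. Neutrophil markers (8 genes) summed to 2.39 to 18.9 TPM in female controls and 22.5 to 67.5 TPM in Kl/Kl females, to 3.64 to 16.1 against 11.4 to 102 TPM in Bmp2+/+ males and to 1.11 to 9.67 against 8.09 to 40.6 TPM in ∆UCS males. Airway epithelium markers (6 genes) stood at 262 to 1318 TPM in female controls and 2357 to 3240 TPM in Kl/Kl females, at 414 to 1782 against 512 to 2422 TPM in Bmp2+/+ males and at 6.06 to 859 against 909 to 2390 TPM in ∆UCS males. Atrial heart muscle markers (5 genes) summed to 127 to 289 TPM in female controls and 305 to 3718 TPM in Kl/Kl females, to 138 to 1122 against 114 to 2801 TPM in Bmp2+/+ males and to 18.4 to 710 against 68.6 to 2378 TPM in ∆UCS males. Dendritic cell markers (5 genes) overlapped in no stratum, with 0.343 to 0.433 against 6.41 to 9.18 TPM in females, 0.290 to 1.24 against 3.36 to 9.38 TPM in Bmp2+/+ males and 0.321 to 0.723 against 1.04 to 5.79 TPM in ∆UCS males. Recruited monocyte markers (6 genes) and fibroblast markers (8 genes) were apart in females alone, at 4.36 to 5.58 against 11.3 to 27.9 TPM and 53.3 to 79.6 against 114 to 163 TPM. In females 29.2% of 22293 genes also lay wholly higher in Kl/Kl, so a separation there says less. In Bmp2+/+ males the Kl/Kl medians of the resident macrophage, airway and atrial sums were below those of the controls. Mast cell, endothelial, smooth muscle and adipocyte sums overlapped in every stratum. The part of these cells and tissues in the chemokine values was not tested. In RNA from a whole aorta, more cells of a type and more RNA per cell cannot be told apart.

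For each tested member the 3 genes with the most similar log2(TPM + 1) over the 22 libraries were listed, with Pearson r as a description, since the libraries share Klotho genotype, strain and scaling. Ccl8 was most like Clec4n (0.977), Fcgr2b (0.977) and Ms4a6c (0.951). Ccl9 was most like Fcgr3 (0.980), Alox5ap (0.979) and Ms4a6d (0.974), and Ccl6 most like Alox5ap (0.969), Ms4a6d (0.962) and Fcgr3 (0.960), so Ccl6 and Ccl9 shared all 3. Ccl2 had Lilra6 (0.931), Pirb (0.930) and Ccr1 (0.929). Ccl7 had Igkv8-30 (0.939), Fcgr2b (0.917) and Ptafr (0.910), and Ccl12 had Cyth4 (0.917), Sirpa (0.917) and Igkv8-30 (0.906). Ccl5 stood with Ccr7 (0.984), Gpr18 (0.984) and H2-Oa (0.983). Ccl11 had lower values, with Vcp (0.849), Pdia4 (0.845) and Il33 (0.842).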

How the data were processed

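The deposited table holds TPM per gene and library, made by the authors; the submitters' processing notes name Partek and the build mm39. Aligner, annotation and counting rule: not given in the sources used here. Libraries were directional polyA libraries, per the labels' protocols. Each column sums to 482073 TPM, and 40.2% to 61.2% of it is mitochondrial. TPM followed genomic span, and 73.2% of 256184 values between 0.5 and 20 reads came out as whole reads (within 0.05). All 240 chemokine values did so within 0.05 reads or 0.1% of the reads, a margin that large read numbers meet in any case. Read numbers are therefore estimates computed here. The exon lengths are those of the GENCODE M21 annotation.

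The 9933 genes that reached 1 TPM in 4 or more libraries were fitted with limma 3.58.1 (R 4.3.3; lmFit, eBayes with trend) on log2(TPM + 1), which understates the changes of low genes. One fit held 6 group means and a library set, inferred from the spelling of the library names, and left out the 2 libraries named in the report. P-values were adjusted by Benjamini-Hochberg over all genes (threshold 0.05, two-sided), and 95% intervals use the moderated degrees of freedom. Genes with at least 10 estimated reads in at least 4 libraries (22293) were also fitted with limma voom. Ccl3 and Ccl4, below the minimum, got exact permutation tests. Labels do not say whether replicates were independent litters, so p-values measure only the spread between these samples. The chemokines share stretches with one another and with near copies, and how such reads were assigned is not known.

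Both fits were run on simulated data with known changes, made only in genes with more control reads than Ccl3, Ccl4, Ccl7 and Ccl12. The simulation therefore says nothing of genes that low. The members and lists were chosen with earlier results of these data known. All 10 members are described; genes of other lists are named where limma called them in a Klotho comparison, and the 3 most similar genes leave out members, predicted genes, pseudogenes and ribosomal protein genes. Genes named from limma voom alone (Cxcl1, Cxcl3, Cxcl5, Il1b, Il6 and Tnf) were chosen after their values were seen. A listed gene is not reported here. Replicate numbers were not taken to pair samples. Alternatives were other scalings, filters, a pseudocount of 0.1, the replicate block, no library set, set 1 alone, the compared groups alone and each library left out.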

Additional observations from a re-analysis of the deposited data

Results flagged for a closer look

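In 12 of 60 groups of 4 libraries (as labelled, with the 2 doubted libraries in place), 1 library lay apart from the other 3 by Dixon's test at the 95% level. That level gives about 1 group in 20 for independent normal values. The test was run on TPM, and the genes share the same libraries, so the 12 are a description and no excess is claimed. Of the 12, 3 were Ccl5: 5.31 TPM in female Kl/Kl replicate 1 (next 0.381), 7.94 TPM in Bmp2+/+ male control replicate 3 (next 0.742) and 10.2 TPM in ∆UCS Kl/Kl replicate 1 (next 1.28). Another 3 were Bmp2+/+ male Kl/Kl replicate 2, with 6.69 TPM of Ccl11 (next 3.67), 3.23 TPM of Ccl12 (next 0.652) and 3.04 TPM of Ccl7 (next 0.650). In the ∆UCS controls, replicate 4 stood apart with 5.50 TPM of Ccl6 (next 3.58) and 0.673 TPM of Ccl7 (next 0.224). Bmp2+/+ male control replicate 2 was low in Ccl2, at 0.191 TPM (next 0.475). Among ∆UCS Kl/Kl males, replicate 2 was high in Ccl2, at 2.57 TPM (next 1.75), and replicate 1 low in Ccl9, at 7.00 TPM (next 8.34). Ccl4 in female control replicate 4 was 0.0128 TPM, a single read, where the other 3 had none.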

How the results depend on the processing

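The number of members called by limma was 2 (Bmp2+/+ males), 6 (females) and 3 (∆UCS males). With all 24 libraries it was 0 in each, and also 0 with median-of-ratios scaling or limma voom of all 24 (the latter chosen after seeing the data). In Bmp2+/+ males it was 0 with the compared groups alone, 0 with library set 1 alone, 5 with limma voom and 4 without a library set. In females it was 3 at a TPM of at least 5, where fewer genes are tested. In ∆UCS males it was 1 with median-of-ratios scaling and 1 without a filter. Other causes were not tested. Leaving out 1 library at a time gave 0 to 5 in Bmp2+/+ males, 4 to 6 in females (4 without Kl/Kl replicate 3) and 1 to 3 in ∆UCS males (1, Ccl9, without control replicate 1, 2 or 3 or Kl/Kl replicate 1 or 2). Of 524 recomputed member values in the Klotho comparisons, 9 changed sign, and 0 of the 11 called values did. The called values stayed past the threshold in 148 of 214 recomputations.

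Replicate numbers were shared between groups, but same-numbered samples did not deviate together throughout (correlations -0.477 to 0.322), so they share only a number. With the replicate block, 2, 6 and 1 members were called in the same order.

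Over all genes, limma called 109, 258 and 64 genes in the 3 strata. With all 24 libraries the counts were 0, 0 and 0, also by limma voom, and 0, 0 and 1 with median-of-ratios scaling of all 24. As higher and lower, they were 307 and 30, 456 and 264, and 159 and 112 with limma voom, and 148 and 33, 209 and 182, and 71 and 57 with median-of-ratios scaling. In all they were 48, 129 and 320 at a TPM of at least 5. The compared groups alone gave 15 in Bmp2+/+ males and 600 higher and 20 lower in females, no filter 988 in females, set 1 alone 13 in Bmp2+/+ and 32 in ∆UCS males, and no library set 99 in ∆UCS males. Depth limits Ccl3 and Ccl4 most, with at most 7 reads in any control.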
